A study of Mus musculus with 6 samples.

Results

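The genes described here are 48 genes of DNA replication and S phase, among 32285 mouse genes counted in nuclei of 2 Foxr2-driven brain lesions. They were taken by symbol from a fixed list, and all 48 symbols were found in the gene lists of both libraries. By role they were split into 8 groups: 10 genes of origin licensing, 5 of helicase activation, 8 DNA polymerase and primase subunits, 8 genes of the sliding clamp, its loader and Okazaki fragment maturation, 4 of nucleotide supply, 5 of chromatin replication and DNA methylation, 2 other helicases, and 6 cell cycle regulators (E2f1, E2f2, E2f7, E2f8, Ccne1 and Ccne2).

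Replication starts in G1, when the origin recognition complex, Cdc6 and Cdt1 load the Mcm2-7 helicase onto DNA. Cyclin E activity and the proteins Cdc45, GINS and Mcm10 then switch the helicase on, and polymerases alpha, delta and epsilon copy the strands behind it. Most of these genes are transcribed under E2F factors at the G1/S boundary, so their RNA is low in cells that have left the cycle, such as neurons and myelinating oligodendrocytes.

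Nuclei were read with the 10x Multiome assay, which measures RNA and open chromatin (ATAC-seq) in the same nucleus. The lesions came from the brains of C57BL/6J mice that were electroporated in utero in the ganglionic eminences. Both genotypes received an integrating piggyBac vector for V5-tagged Foxr2 with GFP and a separate one for Akaluc luciferase with GFP, both under the CAG promoter, together with transiently expressed transposase and Cas9. Foxr2 p53LOF was given a guide against p53 as well, and Foxr2 alone was not. The study describes Foxr2 alone lesions as nonproliferative. Tissue came from mice with symptoms, so a library holds targeted nuclei and nuclei of the host. RNA was analysed in 1 library of each genotype, Foxr2 p53LOF replicate 1 and Foxr2 alone replicate 1. Barcodes and peaks were read for Foxr2 alone replicate 2, whose counts are not analysed here. With 1 library per genotype there is no replicate spread and no test, and genotype cannot be told apart from animal, lesion site or library. All intervals are at 95% and cover counting error only.

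After filtering, 8359 nuclei of Foxr2 p53LOF (median 5527 UMIs) and 8316 nuclei of Foxr2 alone (median 3637 UMIs) were kept. The libraries shared 140 barcodes. Foxr2 RNA, in CPM (UMIs per 1000000 UMIs), was 42.6 in Foxr2 p53LOF nuclei and 3.61 in those of Foxr2 alone. Trp53 RNA stood at 33.6 and 12.9 CPM, a level that does not test the guide. Nuclei were clustered without the genes described here and named from markers, with naming thresholds set after the data were seen. In committed oligodendrocyte precursor (COP)-like nuclei of Foxr2 p53LOF, summed COP markers stood at 2917 CPM, beside 3144 CPM of oligodendrocyte precursor cell (OPC) markers and 4559 CPM of oligodendrocyte markers. The astrocyte-like nuclei of Foxr2 p53LOF lay in cluster 5, where summed OPC markers stood at 5639 CPM and summed astrocyte markers at 3408 CPM, and none of the 10 leading genes of that cluster was a marker of either class. Cluster 0, nearly all of Foxr2 alone, had all 9 oligodendrocyte markers but a median of 1171.5 UMIs and was left unnamed. Cluster 14 (led by Pomc and Hspa1a) and cluster 17 (with T or NK lymphocyte and astrocyte markers) were also left unnamed.

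The first question was which cells of each lesion hold replication RNA. In Foxr2 p53LOF the summed level of the 48 genes was highest in COP-like nuclei, at 1419 CPM (1398 to 1440.1, 1071 nuclei). Astrocyte-like nuclei followed at 1360.4 CPM (1338 to 1383, 1088 nuclei) and microglia/macrophage-like nuclei at 1281 CPM (1253 to 1309.5, 1701 nuclei). These 3 intervals did not overlap, although the levels lay close together. The classes had scaling factors of 0.994, 0.930 and 0.908 by the TMM method of edgeR, in the same order. Their order in CPM therefore depends on the scaling. Cluster 17 stood at 1143.5 CPM (1077.5 to 1212) and cluster 14 at 1033 CPM (961 to 1108), with overlapping intervals. A gap separated these classes from the rest of the same library. Endothelial-like nuclei held 692 CPM (596 to 798), OPC-like nuclei 568 CPM (489 to 656), oligodendrocyte-like nuclei 539 CPM (517 to 562, 1525 nuclei) and neuron-like nuclei 448 CPM (439 to 456, 2252 nuclei). The endothelial-like and OPC-like intervals overlapped, as did the OPC-like and oligodendrocyte-like intervals.

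In Foxr2 alone no class reached the upper levels seen in Foxr2 p53LOF. Microglia/macrophage-like nuclei held 663 CPM (598 to 733, 423 nuclei) and cluster 0 held 642 CPM (617 to 667, 3018 nuclei). OPC-like nuclei stood at 599.7 CPM (530.4 to 676), endothelial-like nuclei at 596 CPM (441 to 788), neuron-like nuclei at 504 CPM (497 to 512, 4246 nuclei) and astrocyte-like nuclei at 453 CPM (419.5 to 488, 428 nuclei). The first 4 of these intervals overlapped. Some replication RNA was therefore read in every class, neurons included. Over both libraries Pola1, the catalytic subunit of polymerase alpha, gave 15.4% of all UMIs of the 48 genes.

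A separate list of 38 mitosis genes gave a wider range than the replication genes. Its summed level was 1446 CPM in COP-like, 1492.5 CPM in astrocyte-like and 1625 CPM in microglia/macrophage-like nuclei of Foxr2 p53LOF, against 215 CPM in oligodendrocyte-like nuclei. Cluster 2, the largest neuron-like cluster of that library, held 442 CPM, so some RNA of this list was read in neurons too. In Foxr2 alone it ran from 151 CPM in cluster 0 to 335 CPM in neuron-like nuclei.

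**Figure D1:**
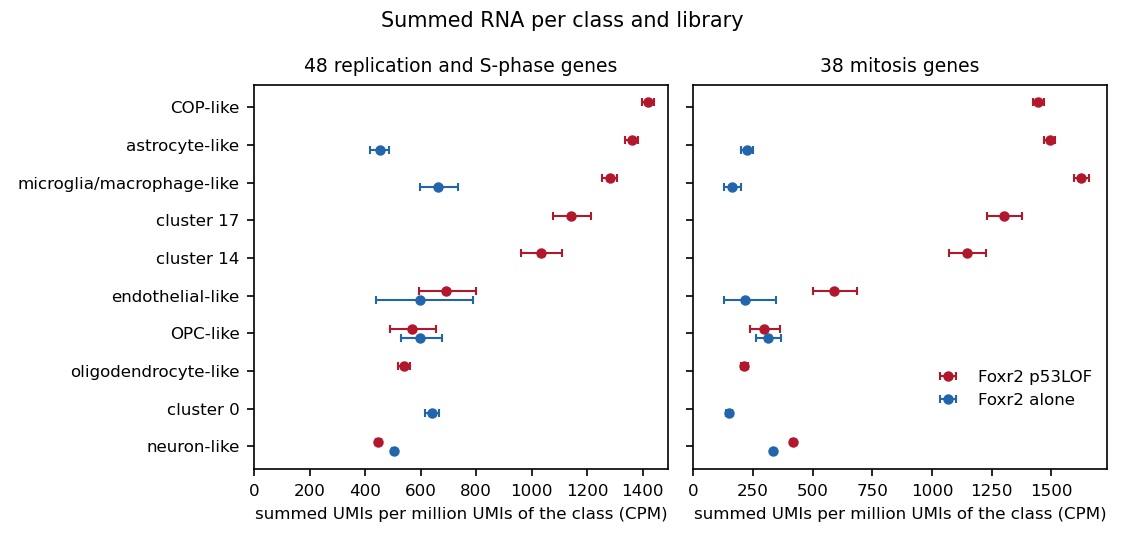
Summed RNA of the 48 replication and S-phase genes (left) and of 38 mitosis genes (right) per cell class, in UMIs per 1000000 UMIs of the class. Points are 1 library each and bars are 95% counting intervals; COP-like, astrocyte-like and microglia/macrophage-like nuclei of Foxr2 p53LOF sit between 1281 and 1419 CPM on the left, above every class of Foxr2 alone.

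Within Foxr2 p53LOF, COP-like nuclei were compared with oligodendrocyte-like nuclei, a class with markers of mature oligodendrocytes. ATAC counts on the vector were found in 27.5% of the first and 0.787% of the second, so a shared origin is not shown. Median UMIs were 9685 and 2455. The summed level of the 48 genes was higher in COP-like nuclei, by 1.40 on the log2 scale (1.33 to 1.46). Of the 36 replication genes with at least 10 CPM in 1 of the classes, 28 were at least 2-fold higher in COP-like nuclei and 0 were 2-fold lower. Of all 10399 genes at that level, 28.5% were 2-fold higher and 1024 genes were 2-fold lower. The median log2 ratio was 1.69 over the 36 genes and 0.43 over all genes. A gene that passed this minimum only through the class where it was high had to differ, and the other 12 replication genes stayed under 10 CPM in both classes.

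The role groups differed in size. Cell cycle regulators showed the highest summed ratio, 3.41 (2.89 to 3.99). E2f7, an atypical E2F that represses E2F targets, was read with 350 UMIs (28.8 CPM) in COP-like and 1 UMI (0.245 CPM) in oligodendrocyte-like nuclei, a log2 ratio of 6.87 (4.39 to 12.2). E2f2, an activating E2F, stood at 17.3 against 1.96 CPM (log2 ratio 3.14), and Ccne2, cyclin E2, at 13.1 against 1.96 CPM (2.74). All 3 passed the minimum through COP-like nuclei alone. The same holds for Uhrf1, Orc1, Cdt1, Mcm7, Mcm6, Pole, Tyms and Brip1, given below. Ratios of such genes, and the counts by role, are therefore a description.

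Chromatin replication and DNA methylation genes came next, with a summed ratio of 2.53 (2.32 to 2.75). Uhrf1, which brings the methyltransferase to newly copied DNA, stood at 17.3 against 0.982 CPM (log2 ratio 4.14, 2.76 to 6.03). Atad2, a chromatin ATPase, stood at 113 against 10.1 CPM (3.49, 3.05 to 3.98). Dnmt1, the maintenance methyltransferase, stood at 106 against 28.2 CPM (1.90), and Chaf1a, a histone chaperone subunit, was lowest at 1.69. All 5 genes of the group were at least 2-fold higher.

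Origin licensing genes had a summed ratio of 1.86 (1.67 to 2.05), and 8 of the 9 that reached 10 CPM were 2-fold higher. Orc1, the ATPase subunit of the origin recognition complex, was highest at 3.36, from 12.6 against 1.23 CPM. Cdt1, the helicase loader, followed at 3.22 (11.4 against 1.23 CPM). Among the helicase subunits, Mcm7 (50.4 against 9.57 CPM) and Mcm6 (47.6 against 9.08 CPM) were near 2.4, and Mcm4 was lowest at 0.69 (0.22 to 1.19).

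Helicase activation genes (1.65, 1.27 to 2.04), nucleotide supply genes (1.49, 1.20 to 1.80), polymerases and primase (1.28, 1.17 to 1.39) and the other helicases (1.22) were in between. Pole, the catalytic subunit of polymerase epsilon, stood at 35.4 against 7.12 CPM (log2 ratio 2.31), and Pold3, a polymerase delta subunit, at 46.9 against 32.1 CPM (0.55). Tyms, thymidylate synthase, stood at 18.2 against 5.15 CPM (1.82). Brip1, a repair helicase, stood at 41.1 against 5.40 CPM (2.93), while Helb, DNA helicase B, stood at 30.8 against 25.5 CPM (0.27, -0.05 to 0.60).

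The clamp, loader and Okazaki maturation genes were nearly level between these classes, with a summed ratio of 0.37 (0.25 to 0.49). Rfc2 and Rfc1, loader subunits, gave -0.11 (-0.43 to 0.22) and 0.11 (-0.07 to 0.29). Pcna, the sliding clamp, stood at 28.9 against 22.1 CPM, a log2 ratio of 0.39 (0.05 to 0.74). Only Rfc3 (1.70), Rfc4 (1.45) and Lig1, the ligase that joins Okazaki fragments (1.30), were 2-fold higher in this group. Astrocyte-like nuclei of Foxr2 p53LOF gave a like picture against oligodendrocyte-like nuclei: 27 of 36 replication genes were 2-fold higher (28.2% of all genes). In this comparison 1 gene, of the clamp group, was 2-fold lower, beside 1327 of all 10375 genes. The summed ratio was 1.33 (1.27 to 1.40) for the 48 genes and 0.08 (-0.05 to 0.20) for the clamp group. Against neuron-like nuclei, COP-like nuclei were 2-fold higher in 30 of 36 genes (30.2% of all genes). There the clamp group was not level, with a summed ratio of 1.33 (1.25 to 1.41) and 5 of 7 genes 2-fold higher. These comparisons share the COP-like or the oligodendrocyte-like values and are not independent.

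The second question was whether nuclei of the same class differed between the 2 libraries. Astrocyte-like nuclei of Foxr2 p53LOF, mainly cluster 5, held 1360.4 CPM of the 48 genes, and those of Foxr2 alone, mainly cluster 11, held 453 CPM. The log2 ratio was 1.59 (1.48 to 1.70). Of 36 genes at 10 CPM or more, 24 were at least 2-fold higher in Foxr2 p53LOF (23.3% of all genes) and 1 was 2-fold lower (28.6% of all genes); with TMM scaling 0 were lower. Genes such as Pola2 and E2f7 reached 10 CPM only in Foxr2 p53LOF and had to differ, so the counts are a description. The median log2 ratio was 1.72 over the 36 genes and 0.01 over all genes. Different clusters hold this class in the 2 libraries, and markers moved with the difference. OPC markers summed to 5639 CPM in the first and 1375 CPM in the second library, and astrocyte markers to 3408 and 13151 CPM. Their part in the difference was not tested.

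Astrocyte-like nuclei of Foxr2 alone had few UMIs of most replication genes. Pola1 was read with 2211 UMIs (220.2 CPM) in the first library and 41 UMIs (27.0 CPM) in the second, with a log2 ratio of 3.03 (2.58 to 3.51). Pola2, its regulatory partner, was read with 347 UMIs (34.6 CPM) and 2 UMIs (1.32 CPM), a ratio of 4.71 (2.85 to 7.77). Atad2 stood at 107 against 11.8 CPM (3.17, 2.51 to 3.93) and Dnmt1 at 86.2 against 9.87 CPM (3.13, 2.40 to 3.97). In each of these 4 genes the interval of the ratio lay above 1. Pola2 and Dnmt1 reached 10 CPM only in Foxr2 p53LOF, so their ratios are a description.

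Uhrf1 had 135 UMIs in astrocyte-like nuclei of Foxr2 p53LOF and 0 in Foxr2 alone. Against a floor of 3 UMIs over the class, its log2 ratio was at least 2.77. E2f7 had 232 UMIs against 1 (5.13, 2.64 to 10.4), Brip1 had 691 against 5 (4.39, 3.16 to 6.01), and Cdt1 had 124 against 1 (4.23, 1.73 to 9.55). With so few UMIs in Foxr2 alone, the sizes of these ratios are poorly fixed. These genes reached 10 CPM only in Foxr2 p53LOF and had to differ, so their ratios and intervals are a description.

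The clamp group again had the lowest summed ratio of the role groups, 0.28 (0.08 to 0.48). Pcna was lower in Foxr2 p53LOF, though under 2-fold with TMM scaling, at 18.9 against 41.5 CPM, a log2 ratio of -1.13 (-1.55 to -0.70). Fen1, the flap endonuclease of Okazaki fragments, stood at 6.07 against 11.2 CPM (-0.88), so it reached 10 CPM only in Foxr2 alone. Orc6, the smallest origin recognition subunit, stood at 37.0 against 57.2 CPM (-0.63, -0.97 to -0.27). Pcna and Orc6 were also lower in Foxr2 p53LOF in the neuron-like class, described below.

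Microglia/macrophage-like nuclei of Foxr2 p53LOF lay in cluster 4 (1395 CPM of the 48 genes, led by Msr1, S100a8 and Mmp12) and cluster 8 (925 CPM, led by Siglech and Fcrls). Those of Foxr2 alone lay in cluster 12 (658 CPM). As a class the log2 ratio was 0.95 (0.80 to 1.10). Markers moved with it: summed microglia and macrophage markers stood at 8873 CPM in Foxr2 p53LOF against 13970.4 CPM, oligodendrocyte markers at 2051 against 830.3 CPM and OPC markers at 696 against 106 CPM, and their part was not tested. Of 34 genes at 10 CPM or more, 17 were at least 2-fold higher in Foxr2 p53LOF (16% of all genes) and 2 were 2-fold lower (23% of all genes). Prim1, Mcm3 and Pole, among others, reached 10 CPM only in Foxr2 p53LOF and had to differ. The median was 1.01 over the 34 genes and -0.14 over all genes.

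In these nuclei the role groups differed in size. Cell cycle regulators had a summed log2 ratio of 2.77 (1.78 to 3.99), with 601 UMIs against 8, and origin licensing genes were level at 0.10 (-0.24 to 0.47). Prim1, the catalytic primase subunit, was read with 102 UMIs against 1 (16.3 against 1.76 CPM, log2 ratio 3.21, 0.70 to 8.53). Mcm3 stood at 24.2 against 3.53 CPM (2.78, 0.90 to 5.84) and Pole at 23.4 against 3.53 CPM (2.73). Atad2 and Pola1 were again higher, by 2.21 (1.54 to 2.97) and 1.81 (1.24 to 2.45).

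Orc1 went the other way in microglia/macrophage-like nuclei, with 24 UMIs (3.84 CPM) in Foxr2 p53LOF and 9 UMIs (15.9 CPM) in the other library (log2 ratio -2.05, -3.20 to -0.76), so it stood lower. Cdt1 stood at 7.20 against 15.9 CPM (-1.14, -2.19 to 0.08) and Orc6 at 17.8 against 35.3 CPM (-0.99, -1.68 to -0.22). The counts of Foxr2 alone were small here, at 9 UMIs each for Orc1 and Cdt1. Both genes reached 10 CPM only in Foxr2 alone and had to differ, so their ratios are a description. The same 2 genes gave the opposite sign in astrocyte-like nuclei, where Orc1 stood at 0.87 and Cdt1 at 4.23.

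In neuron-like nuclei the summed log2 ratio was -0.17 (-0.21 to -0.14), from 448 against 504 CPM. Scaling by the TMM method of edgeR brought it to -0.00, and UMIs per nucleus gave 0.35, so its direction depends on the scaling. Of 13 genes at 10 CPM or more, 3 were 2-fold higher (13.4% of all genes) and 1 was 2-fold lower (19.1% of all genes). The counts depend on the minimum: without one, 10 were higher and 9 lower, and at 5 CPM 7 were lower. The higher ones were Lig1 (13.0 against 3.27 CPM, log2 ratio 1.99), Mcm10 (11.1 against 4.27 CPM, 1.38) and Dnmt1 (34.9 against 16.7 CPM, 1.07), and Pcna was lower (6.52 against 19.3 CPM, -1.57, -1.82 to -1.32). Lig1 and Mcm10 reached 10 CPM only in Foxr2 p53LOF, and Pcna only in Foxr2 alone. These genes had to differ, so their ratios are a description. Orc6 stood at 37.0 against 64.9 CPM (-0.81, -0.92 to -0.70). The neuron-like clusters of the 2 libraries were led by different regional genes (Slc17a6, Sim1 and Th in Foxr2 p53LOF, Penk and Adora2a in Foxr2 alone), and the part of this in the ratios was not tested.

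On the CPM scale, OPC-like and endothelial-like nuclei were close between the libraries. OPC-like nuclei, held by a single cluster in both, gave 184 UMIs in 94 nuclei against 271 in 168, a log2 ratio of -0.08 (-0.36 to 0.20). Endothelial-like nuclei gave 187 UMIs against 49, a ratio of 0.21 (-0.25 to 0.70). On this scale both intervals span 0, and both lie below the ratios of astrocyte-like and microglia/macrophage-like nuclei. TMM factors, Foxr2 p53LOF against Foxr2 alone, were 0.887 against 1.25 in OPC-like and 1.07 against 1.49 in endothelial-like nuclei. TMM scaling would therefore raise both ratios, and the scaled values were not computed.

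**Figure D2:**
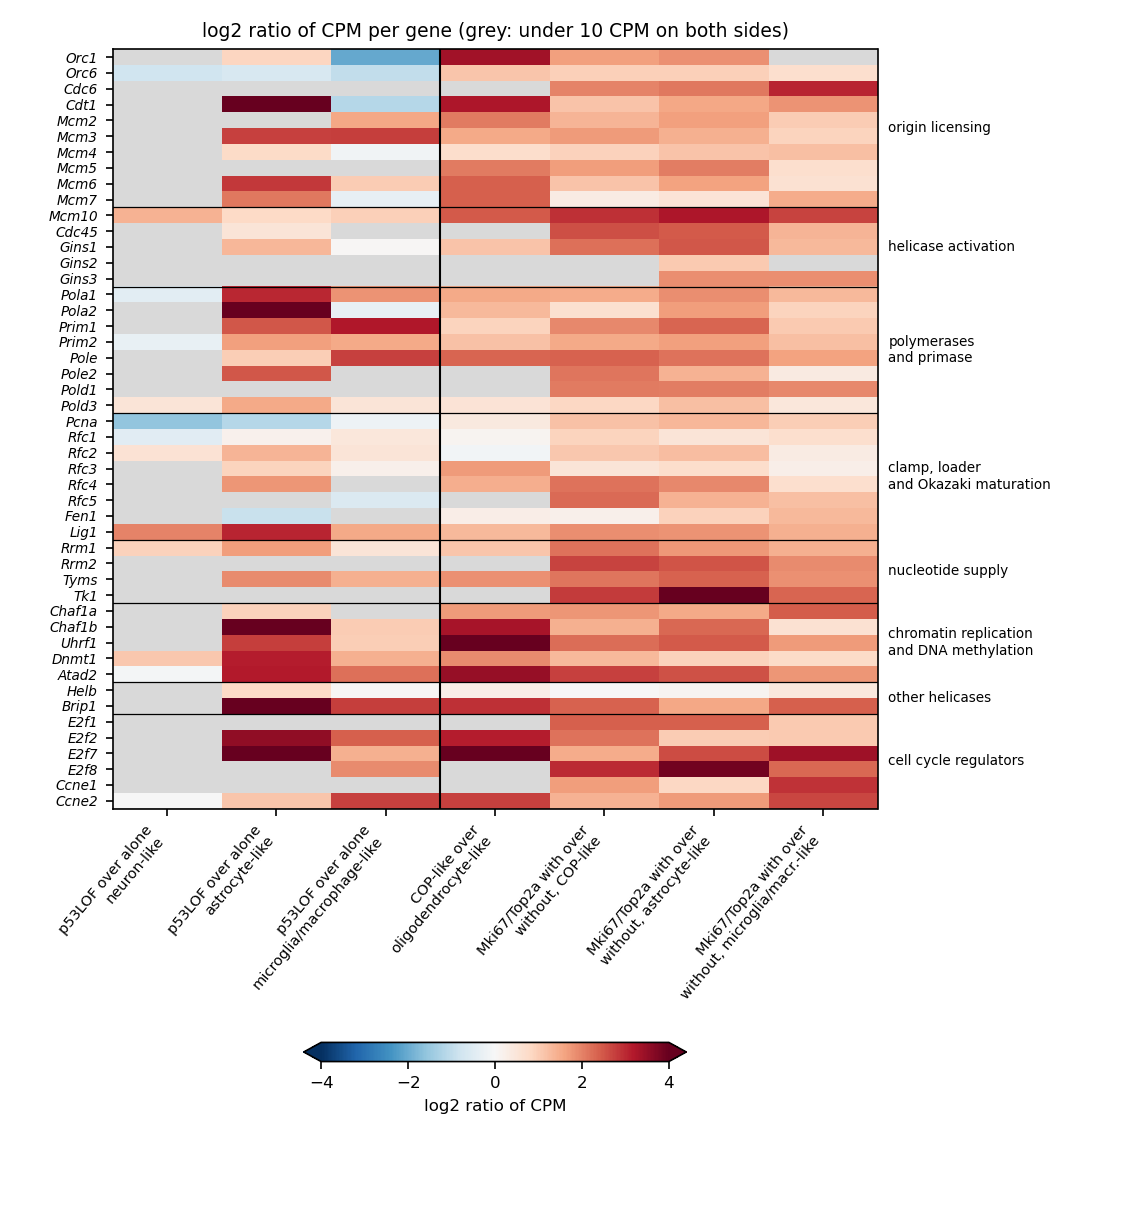
Log2 ratio of CPM for each of the 48 genes (rows, grouped by role) in 7 comparisons (columns): Foxr2 p53LOF over Foxr2 alone in 3 classes, COP-like over oligodendrocyte-like nuclei, and nuclei with over without Mki67 or Top2a in 3 classes of Foxr2 p53LOF. Colours end at -4 and 4, grey cells had under 10 CPM on both sides, and a side with 0 UMIs was set to 3. Pcna is blue in astrocyte-like nuclei and in neuron-like nuclei, where it reached 10 CPM only in Foxr2 alone. Orc1 and Cdt1 are blue in microglia/macrophage-like nuclei, where they too reached 10 CPM only in Foxr2 alone.

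The cell cycle regulators were described in every class, since E2F factors and cyclin E act at the start of S phase. E2f7 was highest in COP-like nuclei at 28.8 CPM (25.9 to 32.0), then in astrocyte-like nuclei at 23.1 CPM (20.2 to 26.3), with overlapping intervals. Clusters 14 and 17, endothelial-like and microglia/macrophage-like nuclei of Foxr2 p53LOF held between 14.1 and 14.8 CPM of E2f7. Neuron-like and oligodendrocyte-like nuclei held 0.874 and 0.245 CPM. No class of Foxr2 alone passed 2.21 CPM, the level of its OPC-like nuclei. The small classes held few UMIs over all genes, at 451891 in those OPC-like and 82177 in endothelial-like nuclei of Foxr2 alone. Endothelial-like nuclei of Foxr2 p53LOF held 270371. The E2f7 levels of these classes are poorly fixed, and nothing is read from them about the libraries.

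E2f2 and E2f8 had another order. E2f2 was highest in microglia/macrophage-like nuclei of Foxr2 p53LOF at 37.3 CPM (32.6 to 42.4), against 17.3 CPM (15.0 to 19.8) in COP-like and 15.3 CPM (13.0 to 18.0) in astrocyte-like nuclei. E2f8, the second atypical E2F, stood at 19.5 CPM (16.2 to 23.3) in microglia/macrophage-like nuclei and at 6.25 and 6.07 CPM in COP-like and astrocyte-like nuclei. Both genes thus stood higher in the myeloid class than in the glial classes, beyond counting error, while E2f7 stood lower there. E2f1 was low throughout, with its highest level in a large class of Foxr2 p53LOF at 9.76 CPM in astrocyte-like nuclei.

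Ccne2 was read in neurons too. It stood at 17.2 CPM (15.6 to 18.9) in neuron-like nuclei of Foxr2 p53LOF and 17.4 CPM (16.0 to 18.9) in those of Foxr2 alone, above the 13.1 CPM (11.1 to 15.3) of COP-like nuclei. Its interval in COP-like nuclei did not reach that of the neuron-like class. Ccne1 stood at 6.25 CPM in COP-like nuclei, 3.77 CPM in the neuron-like class of the same library and 9.02 CPM in that of Foxr2 alone. Cyclin E is known to have a function in postmitotic neurons besides its role in the cycle.

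The next question was how many nuclei were rich in replication RNA. Each nucleus was thinned to 1000 UMIs, shallower nuclei were left out, and nuclei with at least 3 UMIs of the 48 genes were counted. In Foxr2 p53LOF this held for 17.3% of COP-like nuclei (185 of 1071, 15.1 to 19.7%), 15.4% of astrocyte-like nuclei (167 of 1087, 13.3 to 17.6%) and 12.8% of microglia/macrophage-like nuclei (213 of 1670, 11.2 to 14.5%). Clusters 14 and 17 gave 15.2 and 12.3%. The interval of microglia/macrophage-like nuclei lay below that of COP-like nuclei, and the others overlapped it.

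Neuron-like and oligodendrocyte-like nuclei give the background of this measure. Of neuron-like nuclei 1.02% passed (23 of 2252, 0.648 to 1.53%), and of oligodendrocyte-like nuclei 2.51% (38 of 1511, 1.79 to 3.44%). In Foxr2 alone the shares were 3.58% in microglia/macrophage-like nuclei (10 of 279), 3.56% in cluster 0 (75 of 2104), 2.98% in OPC-like nuclei (5 of 168), 1.87% in neuron-like nuclei (79 of 4228) and 0.937% in astrocyte-like nuclei (4 of 427). Each of these lay at or near the background, and 0 of 22 endothelial-like nuclei passed, with an exact upper bound of 15.4%. In Foxr2 p53LOF endothelial-like nuclei gave 8.11% (6 of 74, 3.03 to 16.8%) and OPC-like nuclei 3.19% (3 of 94). Thinning left out 914 of 3018 nuclei in cluster 0 and 144 of 423 microglia/macrophage-like nuclei of Foxr2 alone. In Foxr2 p53LOF it left out 80 of 317 nuclei in cluster 14 and at most 31 in any other class. Without thinning the shares were higher and did not rank by depth alone. In Foxr2 p53LOF 86.1% of COP-like (median 9685 UMIs), 84.4% of astrocyte-like (7966) and 77.1% of neuron-like nuclei (9949) passed. It was 48.3% of microglia/macrophage-like (2687) and 18.4% of oligodendrocyte-like nuclei (2455).

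**Figure D3:**
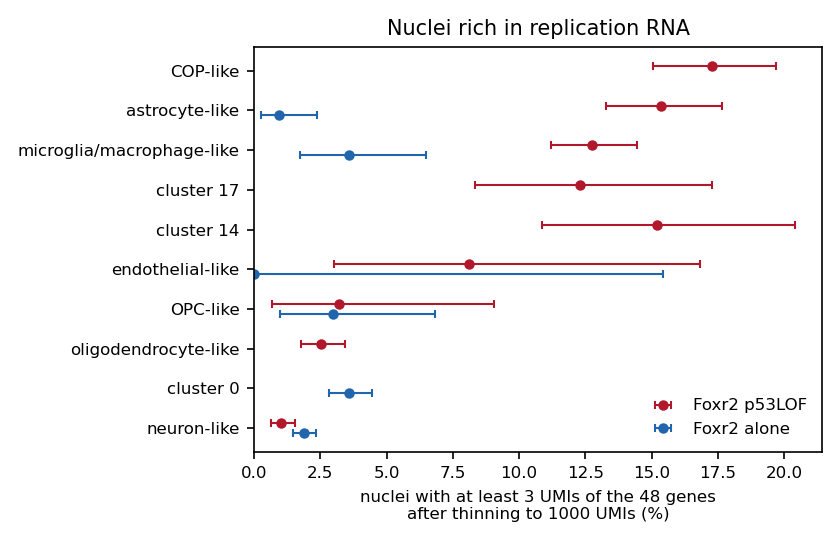
Share of nuclei with at least 3 UMIs of the 48 genes after each nucleus was thinned to 1000 UMIs, per class (rows) and library (colour), with exact binomial 95% intervals. COP-like, astrocyte-like and microglia/macrophage-like nuclei of Foxr2 p53LOF lie between 12.8 and 17.3%, while neuron-like nuclei of both libraries lie at 1.02 and 1.87%.

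Depth before thinning differed between nuclei rich in replication RNA and the rest of their class. Median UMIs were 11545 and 9385 in COP-like nuclei, 8202 and 7857.5 in astrocyte-like nuclei, and 3357 and 2641 in microglia/macrophage-like nuclei, higher in the rich nuclei. They were 8674 and 9987 in neuron-like and 2361 and 2471 in oligodendrocyte-like nuclei, lower in the rich nuclei. Median ATAC counts were 15196 and 12555.5 in COP-like and 6654 and 5510.0 in microglia/macrophage-like nuclei. Class markers were lower in the rich nuclei of the glial classes. COP markers summed to 1728 CPM in the 185 rich COP-like nuclei and 3199.5 CPM in the other 886. Astrocyte markers summed to 1882 CPM in the 167 rich astrocyte-like nuclei and 3694 CPM in the other 920. In microglia/macrophage-like nuclei the class markers stood at 8407 and 8963 CPM, close together. Of nuclei that the doublet caller marked, 6.80% passed in Foxr2 p53LOF, against 8.498% of the kept ones, and 3.16% in Foxr2 alone, against 2.41%.

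Replication and mitosis RNA were then compared in the same nuclei, with at least 2 mitosis UMIs after thinning as the mark of mitosis RNA. Neuron-like nuclei passed that mark in 6.71% of Foxr2 p53LOF and 4.80% of Foxr2 alone, so it has a background. Among COP-like nuclei 112 had both, 73 had replication RNA without mitosis RNA, and 87 had mitosis RNA without replication RNA. Mitosis RNA was thus found in 60.5% of nuclei rich in replication RNA and in 9.82% of the others. The shares were 62.9 and 12.9% in astrocyte-like nuclei and 53.5 and 12.8% in microglia/macrophage-like nuclei.

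Clusters 17 and 14 gave 53.6 against 17% and 44.4 against 19.4%.

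Oligodendrocyte-like and neuron-like nuclei and cluster 0 did not show this overlap. Of the 38 oligodendrocyte-like nuclei rich in replication RNA 2 had mitosis RNA, or 5.26% against 3.05% of the others. In neuron-like nuclei it was 0 of 23, against 6.77% of the others. In cluster 0 of Foxr2 alone it was 0 of 75. In Foxr2 alone the rich nuclei were too few for a share in the OPC-like class (2 of 5 with mitosis RNA) and the astrocyte-like class (1 of 4).

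Mki67 and Top2a, proliferation genes that are not among the 48, gave a split of the nuclei that does not use these genes. It moved with depth: COP-like nuclei with either gene had a median of 11666 UMIs, against 9419.5 in those without. After thinning, 137 COP-like nuclei (12.8%), 120 astrocyte-like nuclei (11.0%) and 200 microglia/macrophage-like nuclei (11.98%) of Foxr2 p53LOF had a UMI of either gene. The share was 2.91% in oligodendrocyte-like and 1.38% in neuron-like nuclei of the same library, and 0.355% in neuron-like nuclei of Foxr2 alone, so the background differed between the libraries. In Foxr2 alone it was 0 of 279 microglia/macrophage-like nuclei, with an exact upper bound of 1.31%, and 0.703% of astrocyte-like nuclei. Nuclei with Mki67 or Top2a held more replication RNA than nuclei without, by a log2 ratio of 1.58 (1.53 to 1.62) in COP-like, 1.69 (1.64 to 1.74) in astrocyte-like and 1.28 (1.21 to 1.35) in microglia/macrophage-like nuclei. In neuron-like nuclei the ratio was 0.16 (-0.08 to 0.39, 31 nuclei with a UMI), an interval that spans 0.

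As above, genes that reached 10 CPM only in nuclei with Mki67 or Top2a, such as Tk1 and E2f8, had to differ, so the counts are a description. In COP-like nuclei 46 of the 48 genes reached 10 CPM, and 37 were at least 2-fold higher with Mki67 or Top2a (4.71% of all genes). There 0 were 2-fold lower, beside 205 of all 10401 genes. It was 40 of 48 in astrocyte-like nuclei (5.11% of all genes) and 31 of 46 in microglia/macrophage-like nuclei (4.5% of all genes). The medians over these genes were 1.70, 1.68 and 1.29, against 0.04, 0.03 and -0.01 over all genes. In neuron-like nuclei 2 of 14 genes were 2-fold higher (4.71% of all genes), Prim2 and Mcm6, with 22 and 4 UMIs. There 1 was 2-fold lower (531 of all 9768 genes), Rrm1, with 2 UMIs.

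By role, helicase activation and nucleotide supply genes had the highest summed ratios in COP-like and astrocyte-like nuclei, and cell cycle regulators in microglia/macrophage-like nuclei (2.02, 1.78 to 2.25). In COP-like nuclei the first pair stood at 2.29 (2.05 to 2.53) and 2.28 (2.08 to 2.47), against 1.08 (0.95 to 1.20) for origin licensing. Mcm10 stood at 64.5 CPM with and 8.43 CPM without Mki67 or Top2a (log2 ratio 2.94, 2.52 to 3.36). Tk1, thymidine kinase, stood at 22.9 against 3.25 CPM (2.81), Rrm2, the regulated subunit of ribonucleotide reductase, at 33.4 against 5.17 CPM (2.69), and Cdc45 at 34.6 against 5.74 CPM (2.59). Of the 10 origin licensing genes 7 were at least 2-fold higher, and Mcm7 was lowest, at 60.9 against 48.6 CPM (0.33, 0.01 to 0.63).

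The highest single ratio in COP-like nuclei was that of E2f8, at 25.2 against 3.16 CPM (3.00, 2.31 to 3.70). Of the other E2F genes, E2f1 stood at 2.40 (1.72 to 3.06), E2f2 at 2.17 (1.76 to 2.58) and E2f7 at 1.49 (1.15 to 1.82). In astrocyte-like nuclei Tk1 (4.12, 3.21 to 5.11) and E2f8 (3.87, 3.08 to 4.71) were highest, and in microglia/macrophage-like nuclei E2f7 (3.40, 2.74 to 4.08) and Cdc6 (3.05, 1.71 to 4.46). Ccne2 and Ccne1 stood at 2.68 and 2.89 in microglia/macrophage-like nuclei and at 1.40 and 1.67 in COP-like nuclei. Atad2 was high in all 3 classes, from 1.76 to 2.74.

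Helb and Fen1 stayed under 2-fold in both glial classes. Helb stood at 31.1 against 30.7 CPM in COP-like nuclei (0.02, -0.43 to 0.44) and at 23.4 against 21.7 CPM in astrocyte-like nuclei (0.10, -0.53 to 0.69). Fen1 stood at 22.3 against 19.2 CPM in COP-like nuclei (0.21, -0.33 to 0.72), and its ratio was 0.91 (-0.13 to 1.84) in astrocyte-like and 1.29 in microglia/macrophage-like nuclei. Rfc1 and Rfc3 were under 2-fold in all 3 classes. Helb overlaps Grip1 on the opposite strand, and Fen1 overlaps Tmem258 there. The part of these overlaps in the levels of Helb and Fen1 was not tested.

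Fen1 had its highest level in the class with the lowest summed mitosis RNA. Cluster 0 of Foxr2 alone held 110.0 CPM of Fen1, against 16.2 CPM in oligodendrocyte-like nuclei of Foxr2 p53LOF and 19.7 CPM in COP-like nuclei. Fen1 lies on mm10 chromosome 19, from 10199132 to 10204169 on the minus strand. Myrf, a myelin regulator, lies on the same strand and ends 4103 bases upstream of it, and Tmem258 overlaps it on the other strand. Tmem258 stood at 113.5 CPM in cluster 0 and 32.1 CPM in oligodendrocyte-like nuclei, and Myrf at 191 and 324 CPM. Between cluster 0 and oligodendrocyte-like nuclei Tmem258 stood higher where Fen1 did. COP-like nuclei went the other way, with Tmem258 at 17.9 CPM, under its level in oligodendrocyte-like nuclei, and Fen1 slightly above. The part of Tmem258 in the Fen1 level was not tested.

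Of the 48 genes, 18 overlap a gene on the opposite strand and 1, Chaf1b, overlaps Gm49617 on the same strand. Gene length, which raises UMI counts in nuclei, was weakly ranked with the ratios, with Spearman values from -0.07 to 0.34 across the comparisons (13 to 48 genes each, which share nuclei and depth). Levels were therefore compared between classes for 1 gene at a time and not between genes.

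Targeted nuclei can be marked by ATAC counts on the vector sequence, and nuclei with such a count were described within their class. A nucleus without such a count is not shown to be of the host. Of COP-like nuclei 27.5% (294) had one, and they held 1573 CPM of the 48 genes (1533 to 1614), against 1351 CPM (1326 to 1376) in the other 777. The rich share was 20.4% (16.0 to 25.5%) against 16.1% (13.6 to 18.9%), with overlapping intervals, and median ATAC counts were 18960.5 against 10378. Of astrocyte-like nuclei 30.8% (335) had a vector count, with 1333 CPM (1294 to 1372) against 1374 CPM (1346 to 1403). Oligodendrocyte-like and neuron-like nuclei had one in 0.787 and 0.666%. Of microglia/macrophage-like nuclei 1.29% (22) had a count, with median ATAC counts of 24767 against 5505 in those without, so detection moved with depth. Reporter RNA stood at 302 CPM there, against 952 CPM in COP-like, 266 CPM in oligodendrocyte-like and 104 CPM in neuron-like nuclei, and its source was not tested.

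Other lists were read in the same way. In a list of 47 other replication genes, 24 of 39 were 2-fold higher in COP-like than in oligodendrocyte-like nuclei (28.5% of all genes). In astrocyte-like nuclei of Foxr2 p53LOF over Foxr2 alone 18 of 40 were higher and 2 lower (23.3 and 28.6% of all genes). In the latter Hells, a chromatin remodeler, was highest, at 99.5 against 5.26 CPM (log2 ratio 4.24), and Pole3, a histone-fold subunit of polymerase epsilon, was lowest, at 7.27 against 21.7 CPM (-1.58). In the mitosis list 30 of 32 genes were 2-fold higher in astrocyte-like and 28 of 29 in microglia/macrophage-like nuclei between the libraries (23.3 and 16% of all genes). Mki67 stood at 136 CPM in microglia/macrophage-like nuclei of Foxr2 p53LOF, with 0 UMIs in Foxr2 alone.

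Of 18 E2F and RB regulators, 9 were 2-fold higher and 3 lower in astrocyte-like nuclei of Foxr2 p53LOF than of Foxr2 alone (23.3 and 28.6% of all genes). In microglia/macrophage-like nuclei 3 were higher and 2 lower, near or under the 16 and 23% of all genes. Ccnd1, cyclin D1, was highest in astrocyte-like nuclei at 184 against 7.90 CPM (log2 ratio 4.54), and Cdkn1a, the p53 target that encodes the inhibitor p21, was lowest at 5.28 against 86.9 CPM (-4.04). In COP-like over oligodendrocyte-like nuclei Cdk6 was highest (115 against 5.64 CPM, 4.35) and Rb1 lowest (88.7 against 259.9 CPM, -1.55). With the Mki67 or Top2a split, 3 of 18 of these regulators were 2-fold higher in COP-like nuclei (4.71% of all genes), and Cdk2, the partner of cyclin E, was highest there (33.4 against 10.2 CPM, 1.71).

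Promoters were examined next, in the reference sequence and in open chromatin. RefSeq promoter sequences (build GRCm38.p6, 250 bases before to 50 after the start) were found for 40 of the 48 genes, the others being Pole, Ccne2, Rfc2, Gins1, Mcm4, Atad2, Prim2 and Gins2. They were searched on both strands for 4 E2F letter strings and for the CCAAT box, the letters read by NF-Y. The first E2F string was TTGGCGC, the second was TTCCCGC, another was TTGCCGC and the last was TTCGCGC; matches may overlap. E2F letters were found in 28 of 40 promoters (70%), against 11.8% of 19423 promoters of all genes. At least 2 matches were found in 13 (32.5%), against 1.54% of all. Promoters of the 48 genes were rich in GC (median 61.3%, against 55.7% of all), and among promoters of all genes at or above their 25th percentile of GC 19.2% held E2F letters. The CCAAT box was in 25 of 40 (62.5%, against 38.4% of all), and both were in 19 (47.5%, against 4.7%).

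The mitosis genes had the reverse mix, with E2F letters in 26.5% and the CCAAT box in 76.5% of 34 promoters. The other replication genes had E2F letters in 54.1% of 37 promoters. A match is a description of letters and not of a bound site, and no match says only that these letters are absent from this window.

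The 200 bases before the start are given here, 5′ to 3′ on the strand of the gene, with E2F and CCAAT letters in capitals (a match on the opposite strand is printed as its reverse complement, so a CCAAT box there reads ATTGG). Mcm6, Mcm5 and Pola1 held the most E2F matches. E2f7 had the highest ratio between COP-like and oligodendrocyte-like nuclei, and Uhrf1 came next to it. Helb, whose ratio between COP-like nuclei with and without Mki67 or Top2a was 0.02, held no such letters within these 200 bases. Its 300-base window held 1 CCAAT box. These genes were picked on different comparisons and do not stand for the list. Mcm10, Tk1 and Cdc45 had no E2F letters in 300 bases and were over 2-fold higher with Mki67 or Top2a in COP-like nuclei. The E2f1 sequence held none either, but its start lay 294 bases from the start site in the gene list. That window lies inside the gene, so nothing is read from it about the E2f1 promoter. Fen1 and Rfc1 had E2F letters in that window and stayed under 2-fold there.
Mcm6 (chr1:128359706-128359905, minus strand): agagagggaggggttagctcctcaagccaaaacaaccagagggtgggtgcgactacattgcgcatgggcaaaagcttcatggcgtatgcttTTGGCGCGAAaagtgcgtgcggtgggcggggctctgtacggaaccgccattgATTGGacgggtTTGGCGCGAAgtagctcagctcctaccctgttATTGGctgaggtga
Mcm5 (chr8:75109309-75109508, plus strand): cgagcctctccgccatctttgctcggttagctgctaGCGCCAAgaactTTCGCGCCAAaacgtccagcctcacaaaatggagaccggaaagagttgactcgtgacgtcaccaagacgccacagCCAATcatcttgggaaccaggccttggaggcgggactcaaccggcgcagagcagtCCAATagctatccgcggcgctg
Pola1 (chrX:93632156-93632355, minus strand): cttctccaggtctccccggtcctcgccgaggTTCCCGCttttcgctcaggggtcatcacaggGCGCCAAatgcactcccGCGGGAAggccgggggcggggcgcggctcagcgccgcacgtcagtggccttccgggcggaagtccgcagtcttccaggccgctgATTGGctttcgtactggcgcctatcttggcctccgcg
E2f7 (chr10:110745239-110745438, plus strand): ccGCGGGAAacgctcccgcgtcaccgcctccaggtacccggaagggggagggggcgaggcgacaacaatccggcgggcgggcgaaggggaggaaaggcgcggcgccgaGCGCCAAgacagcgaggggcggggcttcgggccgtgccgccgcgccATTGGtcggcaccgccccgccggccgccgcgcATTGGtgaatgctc
Uhrf1 (chr17:56303137-56303336, plus strand): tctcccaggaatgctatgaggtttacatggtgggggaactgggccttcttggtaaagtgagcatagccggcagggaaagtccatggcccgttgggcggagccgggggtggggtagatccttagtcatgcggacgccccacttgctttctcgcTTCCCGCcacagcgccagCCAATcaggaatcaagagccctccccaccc
Helb (chr10:120112966-120113165, minus strand): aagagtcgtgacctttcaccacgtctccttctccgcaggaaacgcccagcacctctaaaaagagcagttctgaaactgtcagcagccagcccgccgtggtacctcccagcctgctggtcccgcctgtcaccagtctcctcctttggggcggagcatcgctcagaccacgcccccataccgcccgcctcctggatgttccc

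In Mcm6 the E2F strings of both strands overlapped, as TTGGCGCGAA, at 2 places, and a CCAAT box lay on the opposite strand between them and after them. Mcm5 had TTCGCGCCAA, where strings of both strands overlap, and a further match before it. Pola1 had 3 separate matches within 200 bases. E2f7 itself, whose protein binds E2F letters, had 2 matches.

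Promoter peaks were present in every library, also where replication RNA was low. A peak lay within 1000 bases of the start of 48 of 48 genes in Foxr2 p53LOF, Foxr2 alone replicate 1 and Foxr2 alone replicate 2, against 58.7, 57.8 and 55.9% of all genes. The peak covered the start site itself for 47 of 48 genes in each library, against 51, 49.2 and 48.4% of all genes. Lig1 was the exception in each. The presence of a peak thus did not separate the libraries.

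Summed accessibility differed little between COP-like, oligodendrocyte-like and neuron-like nuclei of Foxr2 p53LOF, although COP-like nuclei held more RNA. Promoters of the 48 genes took 1825 of 1000000 ATAC fragments in peaks in COP-like nuclei (1795 to 1856), 1882 (1839.8 to 1925) in oligodendrocyte-like and 1763 (1737 to 1790.0) in neuron-like nuclei of Foxr2 p53LOF. The log2 ratio of COP-like over oligodendrocyte-like nuclei was -0.04 (-0.08 to -0.00), beside 1.40 for RNA. Taken per fragment in promoters of all genes it was 0.11, so its sign depends on the scale. Of the 48 promoters 27 were more open in COP-like nuclei (48.3% of all promoters), with a median ratio of 0.09 against -0.04 over all. Microglia/macrophage-like nuclei had the highest level, 2411 (2372 to 2451), with a log2 ratio of 0.36 (0.32 to 0.40) over oligodendrocyte-like nuclei. In that comparison 43 of 48 promoters were more open (51.5% of all promoters). Against oligodendrocyte-like nuclei it was 29 of 48 in astrocyte-like (47.9% of all promoters) and 21 of 48 in neuron-like nuclei (55.8% of all promoters), and for COP-like over neuron-like nuclei 26 of 48 (36.6% of all promoters). In Foxr2 alone, against cluster 0, it was 21 of 48 in astrocyte-like (49.8% of all promoters), 34 of 48 in microglia/macrophage-like (60.7%) and 11 of 48 in neuron-like nuclei (38.8%). The summed log2 ratios were -0.17, 0.15 and -0.60 in the same order.

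Single promoters did differ. E2f7 took 34.7 fragments per 1000000 in COP-like and 10.9 in oligodendrocyte-like nuclei (log2 ratio 1.68, 1.22 to 2.18). Ccne2 (1.61, 1.19 to 2.06), E2f2 (1.34, 0.82 to 1.90) and Cdt1 (1.13, 0.83 to 1.43) were also more than 2-fold more open in COP-like nuclei. That is 4 of 48 genes, a smaller share than the 21.4% of all genes. Fen1 was the reverse, at 59.0 against 143 (-1.28, -1.46 to -1.10), and lies beside the myelin gene Myrf. Of these 4 more open promoters, 3 belong to cell cycle regulators.

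The order of the RNA and accessibility ratios of COP-like over oligodendrocyte-like nuclei was related across the 36 genes, with a Spearman value of 0.66, beside 0.61 across 10093 genes. It was 0.68 (36 genes) beside 0.67 for astrocyte-like and 0.63 (32 genes) beside 0.74 for microglia/macrophage-like nuclei. These values are across genes of 1 library and are a description.

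Between nuclei with and without Mki67 or Top2a the accessibility ratio was small but above 0. It was 0.22 (0.16 to 0.28) in COP-like, 0.25 (0.17 to 0.32) in astrocyte-like and 0.17 (0.11 to 0.23) in microglia/macrophage-like nuclei, beside RNA ratios of 1.58, 1.69 and 1.28. More open promoters were counted for 39, 37 and 33 of 48 genes (51.8, 53.9 and 51.7% of all promoters). E2f8 was the most different in COP-like nuclei (52.2 against 30.5 fragments per 1000000, 0.78, 0.35 to 1.19), followed by Prim1 (0.68, -0.17 to 1.46) and Rrm2 (0.64, 0.19 to 1.07). Nuclei in S phase hold more DNA, and how much of this ratio comes from copy number was not tested.

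**Figure D4:**
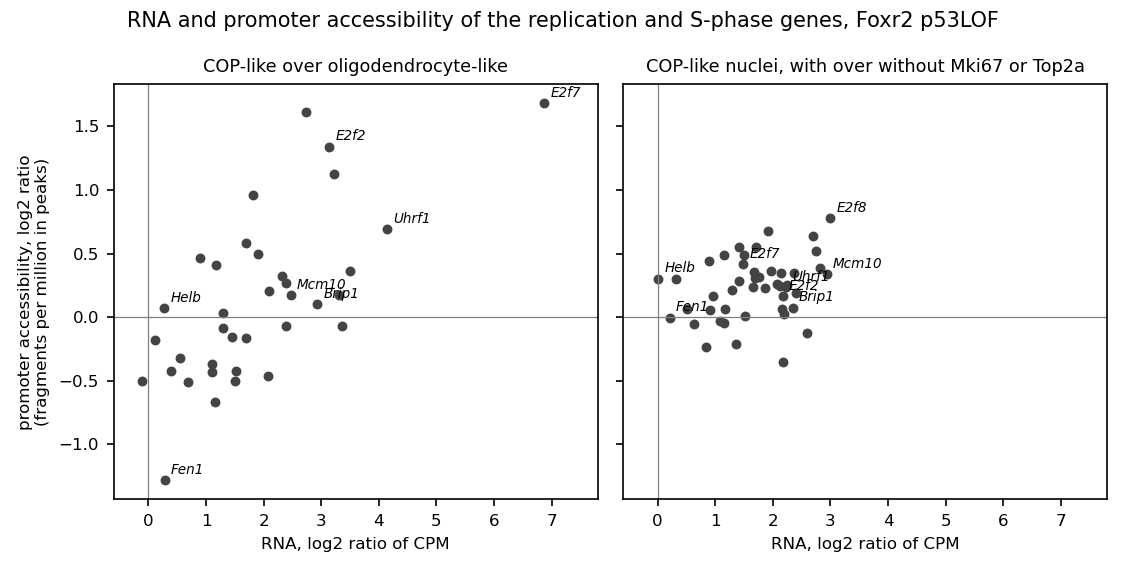
RNA log2 ratio of CPM (horizontal axis) against promoter accessibility log2 ratio of fragments per 1000000 in peaks (vertical axis) for single replication and S-phase genes in Foxr2 p53LOF. On the left, COP-like over oligodendrocyte-like nuclei, E2f7 lies at 6.87 and 1.68 and Fen1 at 0.28 and -1.28; on the right, COP-like nuclei with over without Mki67 or Top2a, the accessibility ratios stay under 0.78.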

How the data were processed

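Single nuclei of frozen lesions were profiled for RNA and open chromatin. The authors aligned reads to mm10 with Cell Ranger ARC 2.0.0, and the deposited matrices hold raw counts of UMIs per gene and of ATAC counts per peak. Whole-number counts were used as deposited. Nuclei with at least 400 genes, at least 400 ATAC fragments (ATAC counts divided by 2) and at most 5% mitochondrial UMIs were kept. The upper limits of the study were applied as well. Doublets were called with Scrublet in scanpy 1.11.5 at an expected 8% (353 and 540 removed). Clusters came from 2000 variable genes, 30 components, 20 neighbours and Leiden resolution 0.5. A class was named where at least 3 markers, and the median marker, had a log2 ratio of at least 1.

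UMIs were summed per class and library and given as CPM. With 1 library per genotype no test was run, and intervals are exact Poisson or binomial. A gene was compared at 10 CPM or more on either side, and called at 2-fold. A class with 0 UMIs was set to a floor of 3 over the class. All 48 members may be named; values were given for those with the most UMIs or the highest and lowest ratio of each role group, and for E2f1, E2f2, E2f7, E2f8, Ccne1 and Ccne2. The members and lists were chosen with earlier results of these data known. The scripts were tested on simulated data. TMM factors came from edgeR 4.0.16.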

Additional observations from a re-analysis of the deposited data

Results flagged for a closer look

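The summed level of the 48 genes differed between the libraries by different amounts in 3 classes. Its log2 ratio, Foxr2 p53LOF over Foxr2 alone, was -0.17 in neuron-like, 1.59 in astrocyte-like and 0.95 in microglia/macrophage-like nuclei. The sign of the neuron-like value depends on the scaling (0.35 per nucleus). The difference between classes was not tested, since each value rests on 1 library per genotype, and each class is held by different clusters in the libraries.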

How the results depend on the processing

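Over 23 results, 140 alternatives were run. In 93 the value moved by less than its counting interval (counts by less than 1.5 times), in 45 it moved further and in 2 it changed sign. No paired analysis was possible because the groups share only replicate number 1. Leaving out a replicate was not possible with 1 library per genotype.

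Both changes of sign came with another scale: UMIs per nucleus gave 0.35 for the summed log2 ratio between libraries in neuron-like nuclei, and fragments in promoters of all genes as the base gave 0.11 for the accessibility of COP-like over oligodendrocyte-like nuclei (0.14 for astrocyte-like over oligodendrocyte-like). The neuron-like ratio was -0.14 without upper limits, -0.020 without the 5 genes with the most UMIs and -0.0020 with TMM. The astrocyte-like ratio was 1.41 with doublets kept, 1.97 with TMM and 2.97 per nucleus. The microglia/macrophage-like ratio was 1.20 with a minimum of 1000 genes and fragments, 1.25 with TMM and 2.40 per nucleus. COP-like over oligodendrocyte-like gave 1.52 without the 5 genes, 1.07 with TMM and 3.48 per nucleus.

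Shares in COP-like, astrocyte-like, microglia/macrophage-like and neuron-like nuclei were 30.2, 29.0, 28.7 and 7.73% with at least 2 UMIs. They were 7.28, 6.53, 4.13 and 0% with at least 5, then 86.1, 84.4, 48.3 and 77.1% without thinning, and 9.62, 8.92, 6.59 and 0.178% without the 5 genes. With the minimum of 1000 the shares were 14.5% in microglia/macrophage-like and 1.57% in neuron-like nuclei.

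Without a minimum, 10 genes were 2-fold higher and 9 lower in neuron-like nuclei. At 5 CPM 7 were lower, and at 1.5-fold 2. In astrocyte-like nuclei 3 were lower at 1.5-fold and 0 with TMM. In microglia/macrophage-like nuclei 1 was lower without upper limits, with the minimum of 1000 and with TMM. Shares over all genes were not computed at these settings, so nothing is read from these counts about the 48 genes. Taking Mki67 or Top2a without thinning gave ratios of 1.43 in COP-like and 1.53 in astrocyte-like nuclei, and a split by at least 2 mitosis UMIs gave 1.83, 1.85 and 1.38 in COP-like, astrocyte-like and microglia/macrophage-like nuclei. Beyond scale and construction, the cause was not tested.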
